A study of Mus musculus with 20 samples.

Results

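The genes described here are those that encode the proteins of the mitochondrial ribosome, measured in visceral adipose tissue (VAT) of mice. They were taken by name, as every non-control probe on the array whose gene name starts with Mrpl (large subunit) or Mrps (small subunit) followed by a digit, and this rule uses no measured value. It found 77 genes, 48 named Mrpl and 29 named Mrps, of 25619 gene names tested in all. All 77 were measured well above background on all 20 arrays, so the filter on dim probes removed none of them. Each gene is reported by its brightest tested probe, and 28 of the 77 genes had more than 1.

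The mice were C57bl/6J males of the F3 generation whose forebears and themselves had received 1 of 2 oils with the growing diet. Ref (6 mice, STD Cont in the labels) and HFoleic (6 mice, HFD Cont) came from the control lineage, given high-oleic sunflower oil. HFepa (8 mice, HFD O3) came from the lineage given fish oil rich in eicosapentaenoic acid (EPA), an n-3 polyunsaturated fatty acid. Ref mice ate a low-fat diet during the challenge, while HFoleic and HFepa mice ate a diet high in fat and sucrose. HFoleic vs. Ref therefore asks what the obesogenic diet did in the control lineage, HFepa vs. Ref what it did against the same controls in the EPA lineage, and HFepa vs. HFoleic compares the lineages on the same diet. No EPA mice on the low-fat diet are among these samples, so lineage and diet are not separated in HFepa vs. Ref. RNA came from epididymal fat and was kept only above an integrity limit.

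Mitochondria carry their own small genome, and the few proteins it encodes are core subunits of the respiratory chain and ATP synthase. A dedicated ribosome in the mitochondrial matrix makes these proteins. Its RNAs come from the mitochondrial genome, but its proteins are encoded in the nucleus, made in the cytosol and imported. Some have a counterpart in the bacterial ribosome, and others are found only in mitochondria. White adipocytes use mitochondria for fatty acid synthesis and lipid turnover as well as for ATP.

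No spot was saturated, and the share of spots well above background ran from 66.1% to 71.9% between arrays. The arrays lie on 3 slides, and all 3 groups are on each slide. Slides 1, 2 and 3 hold 3, 1 and 2 HFoleic mice, 3, 3 and 2 HFepa mice, and 2 Ref mice each. All 12 adipocyte markers were well above background on all 20 arrays. Markers of the epididymis and testis, which border this depot, were partly measured: 7 of 12 passed the filter and 3 of them were well above background on all arrays. Their mean log2 intensity stood apart in 3 mice, at 8.67 in Ref mouse 3, 8.31 in Ref mouse 6 and 8.41 in HFoleic mouse 5, where the other Ref mice ranged from 6.34 to 7.19, the other HFoleic mice from 6.20 to 6.49 and the HFepa mice from 6.21 to 7.62. The mean of 5 brown adipocyte markers was 11.59 in HFepa mouse 7 and between 8.68 and 9.42 in every other mouse. Of 12 macrophage markers measured, 9 were higher and 1 was lower in HFoleic than in Ref. Their mean log2 intensity ranged from 11.21 to 11.75 in Ref, from 12.06 to 13.04 in HFoleic and from 11.20 to 12.99 in HFepa, and all 12 were above background on all arrays. For the 12 adipocyte markers the ranges were 15.39 to 15.84, 15.12 to 15.57 and 15.16 to 15.78, with 1 higher and 4 lower in HFoleic. Of 10 markers of lipid-associated macrophages, 9 were higher in HFoleic, with a median log2 difference of 3.09, and their mean ranged from 9.88 to 10.90 in Ref, from 12.42 to 14.00 in HFoleic and from 10.35 to 14.32 in HFepa. Of 10 progenitor and fibroblast markers, 5 were higher, with a median of 0.69 and mean ranges of 12.05 to 12.69, 12.73 to 13.49 and 12.24 to 12.94. In bulk tissue, fewer cells of a type and less RNA per cell cannot be told apart. The part of these shifts in the results on the ribosomal genes was not tested.

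In HFoleic mice, the mitochondrial ribosomal protein genes did not move as a block. Against Ref, 19 of the 77 were lower and 12 higher (limma, Benjamini–Hochberg adjusted p under 0.05), 31 in all. Over all genes tested, 31.8% were called in this comparison, 16.6% lower and 15.2% higher, against 40.3% of the members. With each array centred on its median in place of quantile normalization, 8 were lower and 12 higher, which is 25.97% of the members against 33.7% of all genes in that fit. Without the 3 mice in which epididymis and testis markers stood apart, a fit added after seeing the data, 10 were lower and 5 higher, 19.5% of the members against 19.2% of all genes. With the replicate number as a block the shares were 20.8% and 21.0%. Among these fits, the members' share was above that of all genes in the first, below it with median centring and close to it in the rest. In the other settings tried the members' share was the higher one. Normexp background correction gave 42.9% of the members against 32.8% of all genes, and array weights gave 51.9% against 41.7%. The processed signal gave 36.4% against 33.2%, and leaving out the filter on dim probes 37.7% against 29.4%. The fall was led by Mrps15, Mrpl45, Mrpl9, Mrps30, Mrps5 and Mrpl38, and the rise by Mrpl35, Mrps6, Mrps22 and Mrpl18. None of the changes exceeded 0.60 on the log2 scale. The median log2 difference over the 77 genes was 0.00, beside -0.04 over all genes.

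**Figure D1:**
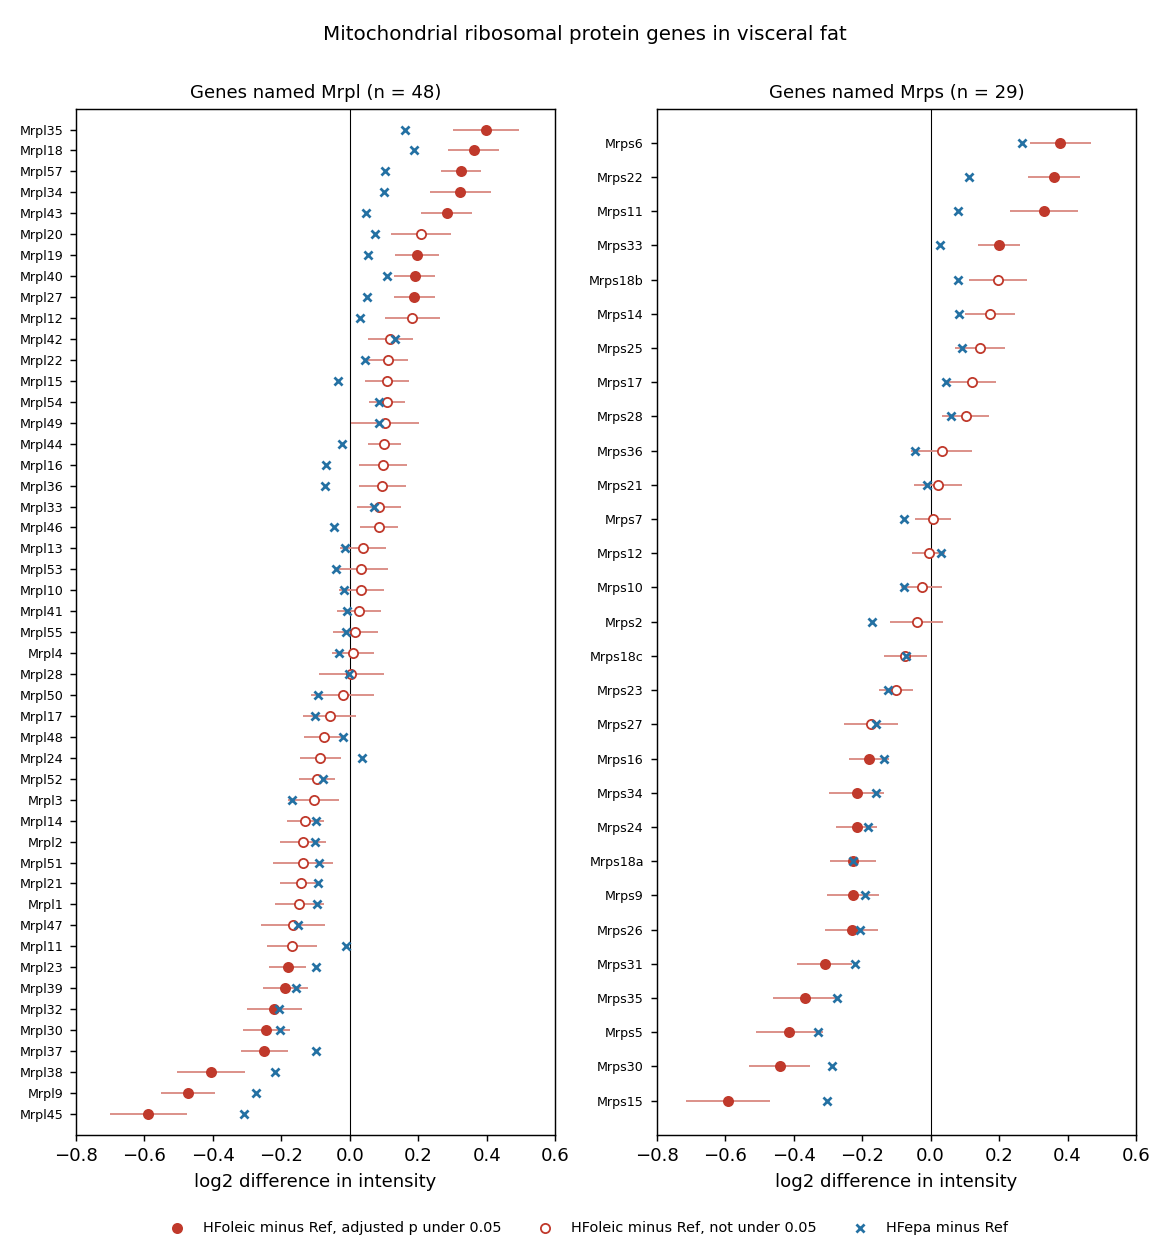
Log2 difference in intensity from Ref for the 48 genes named Mrpl (left) and the 29 named Mrps (right), sorted by the difference in HFoleic. Circles are HFoleic minus Ref with bars of 1 SE, filled where the adjusted p was under 0.05 (31 genes), and crosses are HFepa minus Ref, of which none passed; the 2 comparisons share the Ref mice.

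More of the small subunit genes were called, a difference that was not tested. Of the genes named Mrps, 11 were lower and 4 higher in HFoleic, which is 51.7% of 29. Of the genes named Mrpl, 8 were lower and 8 higher, which is 33.3% of 48 and close to the share over all genes. The median log2 difference was 0.02 for Mrpl genes and -0.04 for Mrps genes, and with median centring these values were 0.08 and 0.003, so that the median of the Mrps genes turned above 0. Names are not a full guide to position: the proteins of Mrps30 and Mrps18a sit in the large subunit, and Mrps36 is now known as a component of the 2-oxoglutarate dehydrogenase complex. With the genes placed by position, 10 of 50 in the large subunit were lower and 8 higher (36% called). In the small subunit, 9 of 26 were lower and 4 higher (50%). Of the 46 genes classed as having a bacterial counterpart, 9 were lower and 7 higher (34.8%). Of the 30 classed as found only in mitochondria, 10 were lower and 5 higher (50%). Over all genes 31.8% were called, and the differences between these shares were not tested. The mean level of each subunit varied little. For the Mrpl genes it was 12.23 ± 0.07 in Ref (SD, n = 6), 12.23 ± 0.05 in HFoleic (SD, n = 6) and 12.20 ± 0.06 in HFepa (SD, n = 8). For the Mrps genes it was 12.23 ± 0.07, 12.17 ± 0.05 and 12.15 ± 0.08 in the same groups. The Mrpl mean minus the Mrps mean within a mouse was between -0.01 and 0.02 in Ref, between 0.03 and 0.10 in HFoleic and between 0.00 and 0.10 in HFepa. By these names, every HFoleic mouse was above every Ref mouse in that difference, and the HFepa mice spanned both. Mrps30 (-0.44 in HFoleic minus Ref) and Mrps18a (-0.23) count with the Mrps genes here, though their proteins sit in the large subunit. The difference within a mouse was not computed by position, so this separation is one of names and is not shown for the assembled subunits.

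Promoter sequence just upstream of the transcription start is shown for the 6 genes on which these results turn: the pair that fell most, the one with the smallest adjusted p, and the 3 that were higher in every HFoleic mouse than in any Ref mouse. The sequences are those of RefSeq on GRCm38.p6, 5′ to 3′ on the strand of the gene, with capitals marking a match to one of 3 motifs searched on both strands: CGCATGCG for NRF1, CCGGAAGT for ETS factors such as GABPA, and GATGGCGG for YY1. These factors are known regulators of nuclear genes for mitochondrial proteins. The stretches are chr4:126046778-126046927 (+ strand), chr11:97315566-97315715 (+ strand), chr3:94443186-94443335 (+ strand), chr9:98601680-98601829 (- strand), chr19:45006443-45006592 (- strand) and chr17:12916192-12916341 (- strand). All end directly before the start except that of Mrpl18, which lies 250 to 101 bases before it.
Mrps15: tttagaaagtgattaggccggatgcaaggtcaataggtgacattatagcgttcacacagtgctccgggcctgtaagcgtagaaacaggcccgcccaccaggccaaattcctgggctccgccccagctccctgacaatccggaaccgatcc
Mrpl45: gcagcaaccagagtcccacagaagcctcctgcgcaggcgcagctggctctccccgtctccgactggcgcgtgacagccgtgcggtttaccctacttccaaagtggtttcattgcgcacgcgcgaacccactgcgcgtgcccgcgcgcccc
Mrpl9: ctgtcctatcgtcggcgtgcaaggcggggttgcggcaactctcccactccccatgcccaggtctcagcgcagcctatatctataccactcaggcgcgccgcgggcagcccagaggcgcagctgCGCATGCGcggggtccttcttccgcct
Mrps22: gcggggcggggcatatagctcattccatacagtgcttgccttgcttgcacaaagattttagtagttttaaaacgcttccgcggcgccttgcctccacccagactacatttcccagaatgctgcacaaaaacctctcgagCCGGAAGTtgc
Mrpl43: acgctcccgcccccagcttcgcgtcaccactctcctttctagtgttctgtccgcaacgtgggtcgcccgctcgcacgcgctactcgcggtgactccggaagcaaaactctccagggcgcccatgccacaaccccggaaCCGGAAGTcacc
Mrpl18: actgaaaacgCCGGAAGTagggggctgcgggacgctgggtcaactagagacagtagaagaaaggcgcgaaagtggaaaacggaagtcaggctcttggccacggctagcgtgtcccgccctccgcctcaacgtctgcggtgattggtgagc
The table of promoters holds 68 of the 77 genes, in windows from 250 bases before to 50 after the start. A motif was found in 23 of the 68 (33.8%), against 7.85% of all 27025 symbols in the table, which also holds non-coding genes. The ETS letters were in 12 members (17.6%, against 4.31%), the NRF1 letters in 7 (10.3%, against 2.07%) and the YY1 letters in 5 (7.35%, against 1.97%). Of the genes lower in HFoleic, 16 have a window, with NRF1 letters in 3 (Mrpl9, Mrpl32 and Mrpl39), YY1 letters in 2 and ETS letters in 1. Of those higher, 11 have a window, with ETS letters in 4 (Mrpl18, Mrpl27, Mrpl43 and Mrps22), YY1 letters in 2 and NRF1 letters in 0. In Mrpl9 the NRF1 letters begin 27 bases before the start, and in Mrps22 and Mrpl43 the ETS letters begin 11 and 12 bases before it. No match was found in the windows of Mrps15 and Mrpl45. A match is a description of the letters only.

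The largest fall was that of Mrps15, a small subunit protein with a bacterial counterpart. Its log2 intensity had a lowest, median and highest value of 14.03, 14.11 and 14.14 in Ref, 13.08, 13.57 and 13.82 in HFoleic, and 13.41, 13.77 and 14.29 in HFepa. All 6 HFoleic mice were below all Ref mice, and so were 7 of the 8 HFepa mice, while the other was above them. Mrps15 fell by 0.59 on the log2 scale in HFoleic (SE 0.12, adjusted p = 0.0017 by limma), that is, it decreased by 33.6%. The log2 difference ranged from -0.46 to -1.03 within the 3 slides, where -1.03 is from slide 2, which holds 1 HFoleic mouse. A second, much dimmer probe of the gene gave -0.19 (adjusted p = 0.091).

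Mrpl45, a large subunit protein that helps attach the ribosome to the inner membrane near the exit of the new peptide, was close behind. Its lowest, median and highest values were 12.55, 12.70 and 12.92 in Ref, 11.84, 12.08 and 12.41 in HFoleic, and 12.09, 12.42 and 12.76 in HFepa. HFoleic and Ref did not overlap, and 6 of 8 HFepa mice were below all Ref mice. Mrpl45 fell by 0.59 in HFoleic (SE 0.11, adjusted p = 0.0011).

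Mrpl9, the counterpart of a bacterial large subunit protein, had the smallest adjusted p of the 77 genes. It measured 11.12, 11.28 and 11.31 (lowest, median, highest) in Ref, 10.66, 10.72 and 11.05 in HFoleic, and 10.75, 10.93 and 11.21 in HFepa. HFoleic and Ref did not overlap. It fell by 0.47 (SE 0.08, adjusted p = 0.00051), and its other probe, also called, by 0.31.

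Mrps30 fell by 0.44 (SE 0.09, adjusted p = 0.0016), from a range of 11.82 to 11.99 in Ref to 11.26 to 11.72 in HFoleic. Mrps5 fell by 0.41 (SE 0.10, adjusted p = 0.0038), from 10.33 to 10.48 in Ref to 9.85 to 10.30 in HFoleic, and both of its probes were called. Neither gene overlapped between the groups. Mrpl38 fell by 0.41 (SE 0.10, adjusted p = 0.0046), but its ranges, 10.28 to 10.61 in Ref and 9.93 to 10.29 in HFoleic, touch. Its other 2 probes were not called (-0.25, adjusted p = 0.17, and -0.03, adjusted p = 0.79), and the mean of the 3 gave -0.23 (adjusted p = 0.062). The other genes that fell were Mrps35 (-0.37), Mrps31 (-0.31), Mrpl37 (-0.25), Mrpl30 (-0.24), Mrps26, Mrps9, Mrps18a, Mrpl32, Mrps24, Mrps34, Mrpl39, Mrpl23 and Mrps16, the last at -0.18. The call of Mrps31 rests on its bright probe, since the dim one gave 0.01 and the mean of both had an adjusted p of 0.16. Without the 3 mice high in epididymis and testis markers, Mrpl38, Mrps35 and Mrps31 lost their call, with adjusted p values of 0.052, 0.056 and 0.051.

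The 12 genes that rose did so by 0.19 to 0.40. Mrpl35 rose by 0.40 (SE 0.10, adjusted p = 0.0043) at a low intensity, with a lowest, median and highest value of 6.25, 6.45 and 6.84 in Ref, 6.72, 6.86 and 7.11 in HFoleic, and 6.52, 6.65 and 6.90 in HFepa. Ref and HFoleic overlapped by 1 HFoleic mouse. Mrps6, a small subunit protein with a bacterial counterpart, rose by 0.38 (SE 0.09, adjusted p = 0.0034), with 13.98, 14.16 and 14.57 in Ref, 14.41, 14.54 and 14.73 in HFoleic, and 14.25, 14.49 and 14.58 in HFepa. Only 2 HFoleic mice were above all Ref mice there, because 1 Ref mouse stood at 14.57.

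Mrps22, a small subunit protein found only in mitochondria, rose by 0.36 (SE 0.08, adjusted p = 0.0020). It measured 10.09, 10.40 and 10.55 in Ref, 10.66, 10.69 and 10.87 in HFoleic, and 10.22, 10.52 and 10.60 in HFepa. The HFoleic mice were above all Ref mice and above all HFepa mice, and a second probe rose by 0.51 (adjusted p = 0.0020). Mrpl18, whose bacterial counterpart binds the small ribosomal RNA of the large subunit, rose by 0.36 (SE 0.07, adjusted p = 0.0016). It measured 11.54, 11.76 and 11.87 in Ref, 11.98, 12.10 and 12.23 in HFoleic, and 11.70, 11.92 and 12.11 in HFepa, and 5 of 8 HFepa mice were above all Ref mice.

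Mrpl57, a large subunit protein found only in mitochondria, rose by 0.32 (SE 0.06, adjusted p = 0.00085), with 13.43, 13.59 and 13.72 in Ref, 13.70, 13.92 and 14.00 in HFoleic, and 13.61, 13.68 and 13.74 in HFepa. The HFepa mice lay close together at the upper end of Ref, and 7 of the 8 were below all HFoleic mice. Mrpl43 rose by 0.28 (SE 0.07, adjusted p = 0.0067), with 12.59, 12.71 and 12.81 in Ref, 12.87, 13.00 and 13.14 in HFoleic, and 12.53, 12.76 and 12.97 in HFepa. Mrpl34 rose by 0.32 (SE 0.09), Mrps11 by 0.33 (SE 0.10) and Mrps33 by 0.20 (SE 0.06), and Mrpl19, Mrpl40 and Mrpl27 by 0.19 or 0.20. Without the 3 mice high in epididymis and testis markers, Mrpl43 (0.26, adjusted p = 0.053), Mrpl34 (0.25, adjusted p = 0.085), Mrps11 (0.19, adjusted p = 0.18) and Mrps33 (0.16, adjusted p = 0.15) were not called.

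**Figure D2:**
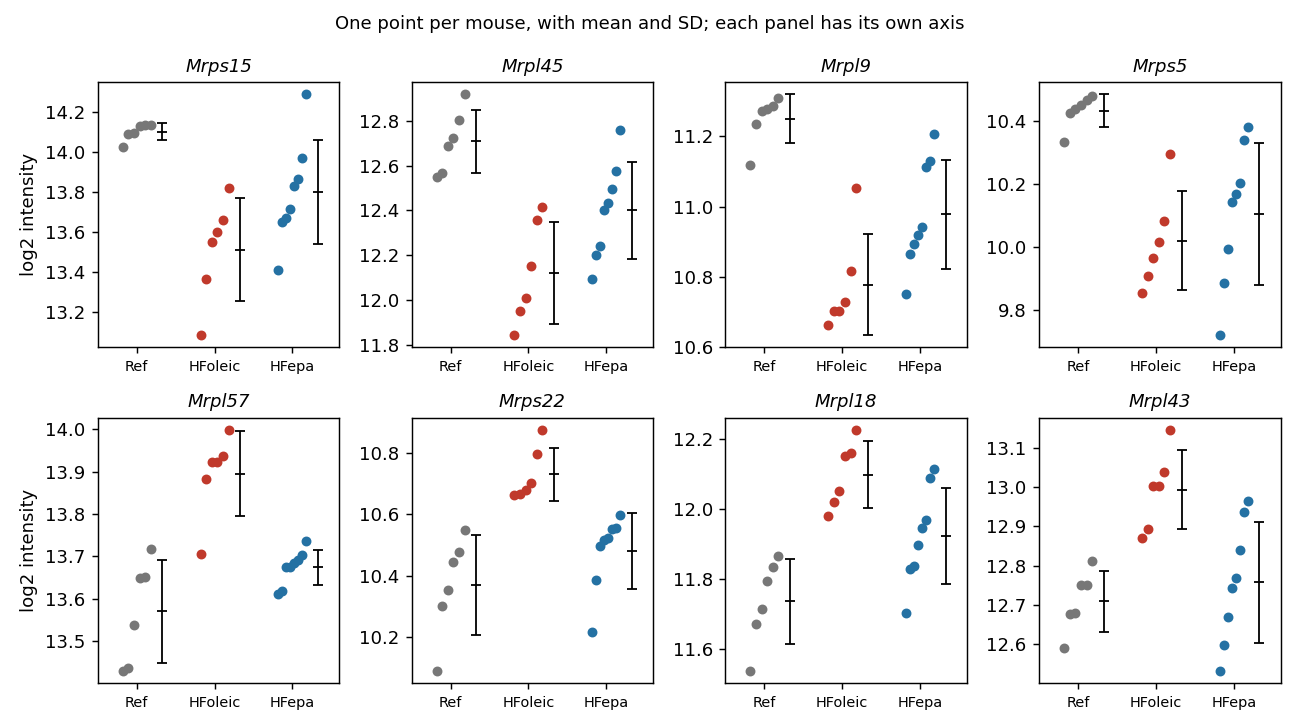
Log2 intensity of 8 mitochondrial ribosomal protein genes, 1 point per mouse, with the mean and SD beside each group of 6 (Ref, HFoleic) or 8 (HFepa) mice. The upper 4 genes were lower and the lower 4 higher in HFoleic than in Ref, and levels are not comparable between panels, which show different probes.

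In 12 genes every HFoleic mouse was below every Ref mouse (Mrps15, Mrpl45, Mrpl9, Mrps30, Mrps5, Mrps35, Mrpl37, Mrpl30, Mrps18a, Mrps24, Mrpl23 and Mrpl21), against 7.07% of all genes. In 3 genes every HFoleic mouse was above (Mrps22, Mrpl18 and Mrpl43), against 6.93%. The remaining 46 genes were not called. The smallest differences were those of Mrpl28 (0.00, 95% interval -0.19 to 0.20), Mrps12 (-0.01, -0.11 to 0.10), which is part of the decoding centre, and Mrps7 (0.01, -0.10 to 0.12). These intervals bound the differences but do not show the groups to be alike. The genes had 36 further tested probes. Of the 14 that belong to a called gene, 13 had the sign of the reported probe and 5 were called in its direction, and none was called in the other. In Mrpl13, Mrpl44 and Mrps18b, 4 further probes were called where the reported one was not. On each of the 3 slides, all 19 lower genes had a difference below 0 and all 12 higher genes one above 0, with medians of -0.25, -0.33 and -0.26 for the lower and 0.36, 0.27 and 0.35 for the higher genes. The values of slide 2 (-0.33 and 0.27) rest on 1 HFoleic mouse. The genes were chosen on the same arrays, so this adds only that no single slide carries the direction.

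In HFepa mice, none of the 77 genes was called against Ref by limma, where 2.46% of all genes were. At an unadjusted p under 0.05 there were 24 of 77, against 21.5% of all genes. The smallest adjusted p was that of Mrpl9, 0.055, with a difference of -0.27 (95% interval -0.43 to -0.12). The next were Mrps5 (-0.33, adjusted p = 0.059), Mrps18a (-0.23, adjusted p = 0.061), Mrps30 (-0.29, adjusted p = 0.068), Mrps24 (-0.18, adjusted p = 0.081) and Mrps6 (0.27, adjusted p = 0.082). In Mrps24 all 8 HFepa mice were below all Ref mice. It was 1 of the 77 genes with this pattern, against 0.671% of all genes, and nothing is read from that count. The call depended on single choices. Normexp background correction called Mrps18a, a stricter filter on dim probes called Mrpl9, and weighting the arrays called Mrpl9, Mrps18a, Mrps30 and Mrps5. The weighted fit called 3.95% of all genes, the normexp fit 2.99% and the fit with the stricter filter 3.40%. Without HFepa mouse 3, 7 genes were called (9.09%, against 7.01% of all genes), and without HFepa mouse 8 there were 4 (5.19%, against 3.71%). Without Ref mouse 7 there were 3 (3.90%, against 4.72%), without HFoleic mouse 1 there were 2 (2.597%, against 3.49%) and without HFepa mouse 2 there was 1 (1.30%, against 2.29%). The median log2 difference was -0.03 for Mrpl genes and -0.08 for Mrps genes, beside -0.02 over all genes.

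Between the lineages on the high-fat diet, HFepa vs. HFoleic, none of the 77 genes was called by limma, and 0% of all genes were called. At an unadjusted p under 0.05 there were 21 of 77, against 20.8% of all genes. The smallest adjusted p values were 0.12, for Mrpl57 (-0.22, 95% interval -0.34 to -0.10), Mrps22 (-0.25, -0.40 to -0.10) and Mrpl43 (-0.24, -0.38 to -0.09). With the slide as a block, Mrpl57, Mrps22, Mrpl43 and Mrps11 were called lower in HFepa, in a fit that called 3.14% of all genes. Weighting the arrays called 7 genes, among them these first 3, which is 9.09% of the members against 11.4% of all genes. Without HFoleic mouse 1 the calls were Mrpl57 and Mrpl9, 2.597% of the members against 4.36% of all genes, and without HFepa mouse 1 they were Mrpl43 and Mrpl57, against 7.69% of all genes. Mrps22 was the only 1 of the 77 genes whose HFepa mice all lay below all HFoleic mice, as in 0.203% of all genes. It was named for its small p in this same comparison, and nothing is read from that count. Mrps18a is an example from the other end: its difference was 0.00, with a 95% interval of -0.13 to 0.13.

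The comparisons with Ref share the Ref mice, so their values are given side by side and not as support for each other. The 19 genes lower in HFoleic had a median difference from Ref of -0.24 in HFoleic and -0.21 in HFepa, and a median of 0.08 in HFepa minus HFoleic. For the 12 higher genes these medians were 0.32, 0.10 and -0.20. By mouse, the mean log2 intensity of the 19 genes had a lowest, median and highest value of 12.16, 12.19 and 12.26 in Ref, 11.77, 11.87 and 12.06 in HFoleic, and 11.79, 11.997 and 12.14 in HFepa. The mean of the 12 genes was 11.32, 11.52 and 11.70 in Ref, 11.74, 11.81 and 11.89 in HFoleic, and 11.51, 11.65 and 11.69 in HFepa. Both sets were chosen by their levels in the Ref and HFoleic mice, so where the HFepa mice lie beside these groups is a description from which nothing is read.

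**Figure D3:**
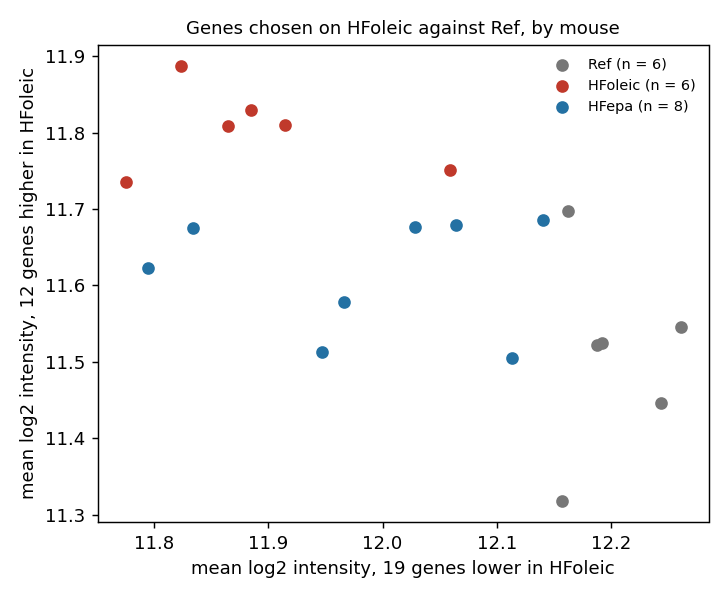
Mean log2 intensity per mouse of the 12 genes higher in HFoleic (vertical) against that of the 19 genes lower in HFoleic (horizontal), 1 point per mouse. The separation of HFoleic from Ref follows from how the genes were chosen, and the place of the 8 HFepa mice depends on that choice too, since it used the Ref mice. The HFepa mice spread from 11.79 to 12.14 on the horizontal axis and from 11.51 to 11.69 on the vertical.

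The genes that act with the mitochondrial ribosome give the wider picture. Of 6 subunits known under other names (Dap3, Ptcd3, Chchd1, Aurkaip1, Gadd45gip1 and Ict1), none was called in HFoleic vs. Ref, and their differences lay between -0.12 and 0.08. At an unadjusted p under 0.05 there were also 0. Of 29 assembly factors, 8 were lower and 0 higher (27.6% called, against 31.8% of all genes), with a median of -0.10 that reached -0.16 under other scalings. They included Malsu1, which keeps the large subunit from joining too early (-0.29, adjusted p = 0.0031), and the GTPase Mtg2 (-0.29, adjusted p = 0.0066). C1qbp followed (-0.27, adjusted p = 0.010). Malsu1 was also lower in HFepa than in Ref (-0.24, adjusted p = 0.0496).

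Of 16 genes listed for the steps of translation and for membrane insertion, 3 were lower and 1 higher in HFoleic. This is 25%, below the 31.8% over all genes. Oxa1l, which inserts new proteins into the inner membrane, fell by 0.28 in HFoleic (adjusted p = 0.0016) and by 0.24 in HFepa (adjusted p = 0.028). The elongation factor Tufm fell by 0.22 in HFoleic (adjusted p = 0.018). The 1 higher gene of this wider list was Letm1, which rose by 0.30 (adjusted p = 0.035) and is not counted here as a translation factor. Of 20 mitochondrial aminoacyl-tRNA synthetases and related enzymes, 2 were lower, which is 10%: Hars2 (-0.31, adjusted p = 0.0037) and Fars2 (-0.28, adjusted p = 0.018). Qrsl1, next by p, was 0.22 (adjusted p = 0.050, above the threshold). Of 13 genes for the replication and transcription of the mitochondrial genome, 5 were lower and 1 higher (46.2% called), led by Mterf1b (-0.52, adjusted p = 0.0039), its paralog Mterf1a (-0.41, adjusted p = 0.0048), whose probe may share signal with it, and the polymerase subunit Polg2 (-0.50, adjusted p = 0.0044). Of 13 regulators of mitochondrial biogenesis, 3 were lower and 2 higher (38.5% called). Esrra, an orphan nuclear receptor, rose by 0.52 (adjusted p = 0.0012), and Yy1 (-0.39, adjusted p = 0.0020) and Nrf1 (-0.39, adjusted p = 0.0033) fell.

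Of 11 probes for transcripts of the mitochondrial genome itself, 3 were lower and none higher in HFoleic: ND5 (-0.69, adjusted p = 0.0053), ATP8 (-0.60, adjusted p = 0.0099) and ND4L (-0.51, adjusted p = 0.013). This is 27.3% of the list, where 31.8% of all genes were called, 16.6% lower and 15.2% higher. The median over the list was -0.24 and lay between -0.23 and -0.39 under the 5 scalings tried. The 80 nuclear genes of the respiratory chain and ATP synthase had 25 lower and 2 higher (33.8% called, close to the share over all genes). Their median was -0.17 and stayed between -0.14 and -0.23 under the same scalings. One of the 2 higher was Cox6a2, the muscle form of a cytochrome oxidase subunit, at 2.41. The 84 cytosolic ribosomal protein genes had 10 higher and 3 lower (15.5% called) and a median of 0.03, which lay between -0.03 and 0.07 under the same scalings and so has no settled sign. The difference between these lists and the mitochondrial ribosomal genes was not tested.

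**Figure D4:**
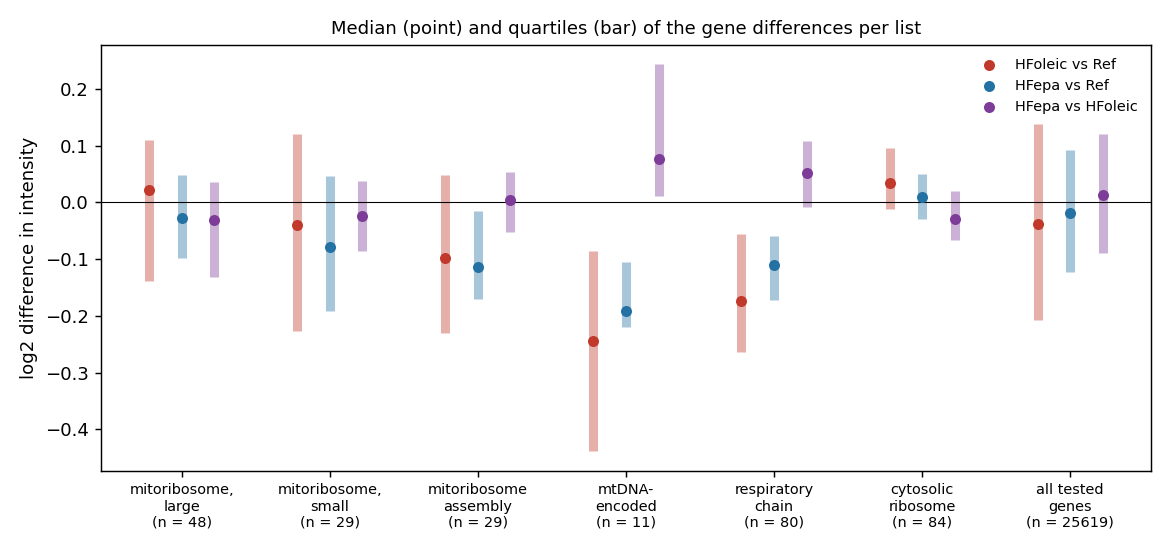
Median (points) and range from the lower to the upper quartile (bars) of the log2 differences of the genes in 7 lists, for the 3 comparisons, with the number of genes under each list. In HFoleic vs. Ref the respiratory chain (median -0.17) and the mtDNA-encoded transcripts (-0.24) lie below all genes (-0.04), and the lists of mitochondrial ribosomal genes span both sides of 0.

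Many of the genes start beside another gene on the opposite strand. Within 1000 bases, 26 of the 68 genes in the promoter table (38.2%) have such a head-to-head neighbour, against 12.3% of all symbols there, and 25 of the neighbours were measured. Mrps11 and Mrpl46 are each other's neighbour, so their pair is counted from both sides. Of the 25 genes with a measured neighbour, the gene was called in 10 cases in HFoleic vs. Ref, the neighbour in 8 and both in 4. Over all genes 31.8% were called. These 4 are described for their positions, and nothing is read from their number. Mrpl57 starts 76 bases from Ska3, a kinetochore gene, and both rose (0.32 and 0.81). Mrpl27 starts 48 bases from Eme1 and both rose (0.19 and 0.41). Mrpl43 starts 116 bases from Twnk, the helicase of the mitochondrial genome (Peo1 in the files), and rose by 0.28 while Twnk fell by 0.28. Mrpl32 starts 205 bases from the proteasome gene Psma2, and fell by 0.22 while Psma2 rose by 0.22. One pair lies within the ribosome: Mrps11 and Mrpl46 start 42 bases apart, and Mrps11 rose by 0.33 (adjusted p = 0.016) where Mrpl46 was 0.08 (adjusted p = 0.26).

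Within the groups, the genes varied together only in part. After each group's mean was removed, the median correlation between members over the 20 mice was 0.30, against 0.67 between the respiratory chain genes and 0.17 between the cytosolic ribosomal genes. The mean level of the 77 genes followed that of the respiratory chain genes (r = 0.88, rho = 0.78, and r = 0.86 without the 2 farthest mice), and with the slide removed as well r was 0.87. It went against the mean of the macrophage markers (r = -0.64, rho = -0.55, and r = -0.44 without the 2 farthest mice), and also against the means of the lipid-associated macrophage markers (r = -0.54, rho = -0.59, and r = -0.37 without the 2 farthest mice) and of the progenitor and fibroblast markers (r = -0.49, rho = -0.46, and r = -0.44). The 19 lower genes had a median r of -0.68 with the macrophage markers and none was above 0, and the 12 higher genes had a median of 0.05 and 8 of them were above 0. With the mean of the adipocyte markers the medians were 0.49 and 0.02. The genes not called had a median r of 0.46 with the adipocyte markers and -0.34 with the macrophage markers. Both had the sign seen in the lower genes. For the mean level of the 77 genes, r was 0.65 with the adipocyte markers and -0.61 with the cytosolic ribosomal genes. Without the 2 farthest mice these were 0.71 and -0.44. With the slide removed as well, the medians of the lower and higher genes with the macrophage markers were -0.69 and -0.09. Of the 12 higher genes, 4 were then above 0. Mrpl45 had r = -0.79 with the macrophage markers, and Mrpl43, at the other end, had 0.56. These correlations are descriptions over 20 mice whose points share an array and its normalization, and what the tissue's cell makeup contributes to them was not tested.

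**Figure D5:**
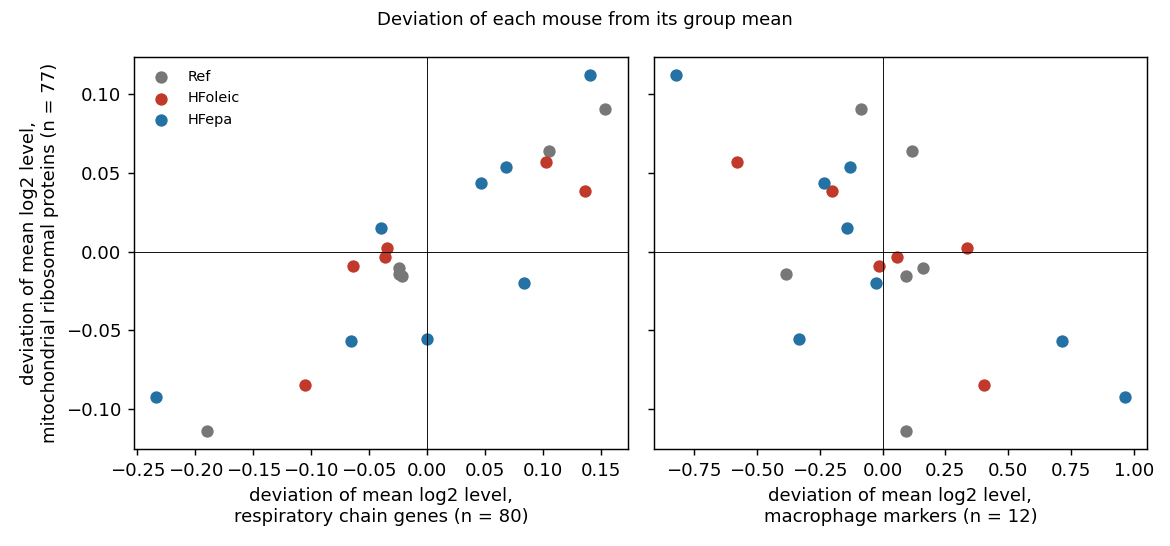
Deviation of each mouse from its group mean in the mean log2 level of the 77 mitochondrial ribosomal genes (vertical), against the same for 80 respiratory chain genes (left) and 12 macrophage markers (right), with 1 point per mouse and 20 mice in 3 groups. The points rise together on the left (r = 0.88) and fall on the right (r = -0.64).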

How the data were processed

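RNA of 20 mice was measured on 1-colour Agilent mouse arrays, 1 array per mouse. The authors extracted spots with Agilent Feature Extraction 10.10.1.1, per the labels, and the deposited intensity values (median, mean, background and processed signal) are on a linear scale, not normalized between arrays. The authors also deposited a table of quantile-normalized log2 values after a filter whose rule is not given in the sources used here, and it served as an alternative. Control spots were left out, and spots with a non-uniformity or population-outlier mark were set missing, which removed no value of a reported member probe. Of 56605 probes, the 39392 called well above background on at least 6 arrays were kept, taken to log2 of the median signal without background subtraction, and quantile normalized. Spots of a probe were averaged. All 20 arrays entered 1 linear model with a mean for each group in limma 3.58.1 (R 4.3.3), with eBayes. Adjusted p values are Benjamini–Hochberg over all tested probes, with a threshold of 0.05. Intervals are 95% and come from the same fit. The fit was tested on simulated data.

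Genes are reported by their brightest tested probe (mean of all arrays). Gene names are those of the array files, whose coordinates are on mm9, and all 77 are symbols of the RefSeq table on GRCm38.p6, which gave promoters and start sites. Named genes are those with the 5 largest rises and falls per subunit past the threshold in HFoleic vs. Ref, the 3 smallest p in HFepa vs. HFoleic, the 3 smallest changes, and the 3 smallest p of each list; others were named after their values were seen. The members and lists were chosen with earlier results of these data known. The gene D2Wsu81e was dropped from a list because it is not a ribosomal subunit. The number of arrays limits the precision.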

Additional observations from a re-analysis of the deposited data

Results flagged for a closer look

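Among 72 groups of values examined (22 genes and the mean levels of both subunits, in 3 groups each), 3 held a mouse that stood apart from the rest of its group, and chance alone gives about 1 in 20 groups. Mrps6 was at 14.57 in Ref mouse 7, where the next Ref mouse was at 14.17 and the lowest at 13.98. Mrps35 was at 10.82 in Ref mouse 6, where the next was at 10.63 and the lowest at 10.56. Mrpl28 was at 10.82 in HFoleic mouse 1, where the next was at 10.56 and the lowest at 10.41. Without these mice in turn, Mrps6 and Mrps35 were still called in HFoleic vs. Ref. No gene differed between the lineages past the threshold in the unweighted fit of all mice without a block.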

How the results depend on the processing

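In HFoleic vs. Ref, the count of 31 genes lay between 24 and 33 when each mouse was left out in turn, where 25.9% to 34.6% of all genes were called. It was 20 with median centring (8 lower, 25.97% of the members against 33.7% of all genes) and 16 with the replicate number as a block (8 lower, 20.8% against 21.0%). Array weights raised it to 40 (51.9% against 41.7%). Without the 3 mice high in epididymis and testis markers, a setting chosen after seeing the data, it was 15 (10 lower and 5 higher, 19.5% against 19.2%), and 0 in the other comparisons. Median centring also moved the median of the large subunit genes to 0.0847. Whether the replicate numbers stand for a pairing of the mice is not known. The paper describes the HFoleic and HFepa mice as matched for body weight, without saying whether the numbers follow that matching. Of 16 same-numbered pairs, 5 had deviations that correlated above 0.1, and r ran from -0.59 to 0.56. These correlations cannot decide it, since matched mice need not share deviations in expression. In the other comparisons the block called 0 genes. In HFepa vs. Ref the count of 0 became 1 with normexp correction, 1 with the filter on all arrays of a group and 4 with array weights, and 0 to 7 without single mice. In HFepa vs. HFoleic it became 4 with the slide as a block and 7 with array weights, and 0 to 2 without single mice. The cause was not tested.

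No value whose sign turned was past the threshold. In HFoleic vs. Ref, Mrpl28 was -0.0469 with the replicate block and -0.0328 with array weights (-0.0642 to 0.0637 without single mice) and -0.0959 without those 3 mice. Mrps12 was 0.00684 on the processed signal, 0.0599 with median centring, 0.0102 in the authors' table and 0.00184 with the slide as a block (-0.0264 to 0.0124 without single mice). Mrps7 was -0.00338 with normexp correction and -0.00502 with the replicate block (-0.0137 to 0.0298 without single mice) and -0.0266 without the 3 mice. In HFepa vs. Ref, Mrpl28 was 0.0143 with median centring (-0.0730 to 0.0550 without single mice), and without the 3 mice Mrps11 was -0.0427 and Mrps33 -0.0102. In HFepa vs. HFoleic, Mrpl28 was 0.0197 with the replicate block and 0.0319 with array weights (-0.0444 to 0.0415 without single mice), Mrpl30 was -0.000800 and Mrps12 -0.00209 with median centring, and Mrps31 was -0.0393 with the mean of its probes. Mrpl35 has no value in the authors' table. All other values of the 22 named genes kept their direction under the 14 other settings and the 20 left-out mice, and in HFoleic vs. Ref 15 values lost their call, 7 of them without the 3 mice and none by leaving out a single mouse. All 77 genes were well above background on all arrays.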
